A study of Mus musculus with 32 samples.

Results

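The genes of the proteasome and of the ubiquitin-conjugating (E2) enzymes were followed in brain, kidney, muscle and pancreas of mice that lack Nox4, an NADPH oxidase that produces hydrogen peroxide. The members were the genes whose symbol in the probe annotation begins with Psma to Psmg followed by a digit, or with Ube2. They numbered 62 genes on 84 probes, of 9030 named genes on 12771 probes of the array. By role, 17 genes encoded the core particle, 13 the regulatory particle, 10 its activators, inhibitor and assembly chaperones, and 20 the E2 enzymes. The other 2 matched by name alone: Psmc3ip, a protein of meiotic recombination, and Psme3ip1, a nuclear protein that binds the activator Psme3. All 62 genes were tested in every tissue.

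Each tissue came from the same 4 male Nox4 -/- mice on the C57BL/6 background, aged 17 weeks. Each sample was read on a dye-swapped pair of arrays, 1 with its RNA in Cy5 and 1 with it in Cy3, against an RNA pool of wild-type males of the same strain and age. Sources disagree on how many wild-type mice the pool held: 4 by the series' design and the reference channel, another number by the labelling protocol. The labels name neither a targeted exon nor a Cre driver, and the array held 0 probes named Nox4. A ratio against the pool of the same tissue gives no transcript level, so the tissue of a sample could not be checked by its markers.

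The values are log2 ratios, in which 0 marks the level of the pool, and each animal's value is the mean of its 2 arrays. The direction is likely knockout over wild type, from the design text and the channel labels. It is not settled whether the authors had already turned the ratios of the arrays with the knockout in Cy3. By construction, if they had not, the mean of an animal's arrays would hold the dye effect of a probe in place of the difference between genotypes, so values with those signs turned are given for the leading results. Array medians lay between −0.07 and 0.05, and arrays carried 19815 to 20684 values. Of the 2688 member values, 6 were missing. In bulk tissue, fewer cells of a type and less RNA per cell cannot be told apart.

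The proteasome degrades proteins marked with ubiquitin. Its core particle is a stack of rings, in which alpha subunits form the gate and beta subunits hold the proteolytic sites. The regulatory particle caps the core, binds ubiquitin chains, removes them and unfolds the substrate with a ring of ATPases. E2 enzymes carry activated ubiquitin from an E1 enzyme to a substrate chosen by an E3 ligase. In muscle, this system is known for breaking down contractile proteins during wasting, and oxidative stress is known to alter proteasome composition and synthesis.

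The proteasome and E2 genes as groups lay near the level of the pool in all 4 tissues. The median log2 ratio of the core particle was 0.01 in brain, −0.02 in muscle, 0.01 in kidney and 0.05 in pancreas. That of the regulatory particle was 0.03 in brain, −0.01 in muscle, −0.01 in kidney and −0.01 in pancreas. The median of the E2 enzymes was 0.00 in brain, 0.00 in muscle, 0.00 in kidney and 0.04 in pancreas. Over all genes tested the medians were 0.01 in brain, −0.02 in muscle, 0.00 in kidney and 0.00 in pancreas. The SD of the core particle's median over the 4 animals was 0.03 in brain, 0.04 in muscle, 0.03 in kidney and 0.02 in pancreas. In pancreas the core median taken within an animal ran from −0.01 to 0.02, lower than the median of the genes' means. With the Cy3 arrays turned, the core median in pancreas was −0.13 and the regulatory particle median in muscle was 0.11.

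**Figure D1:**
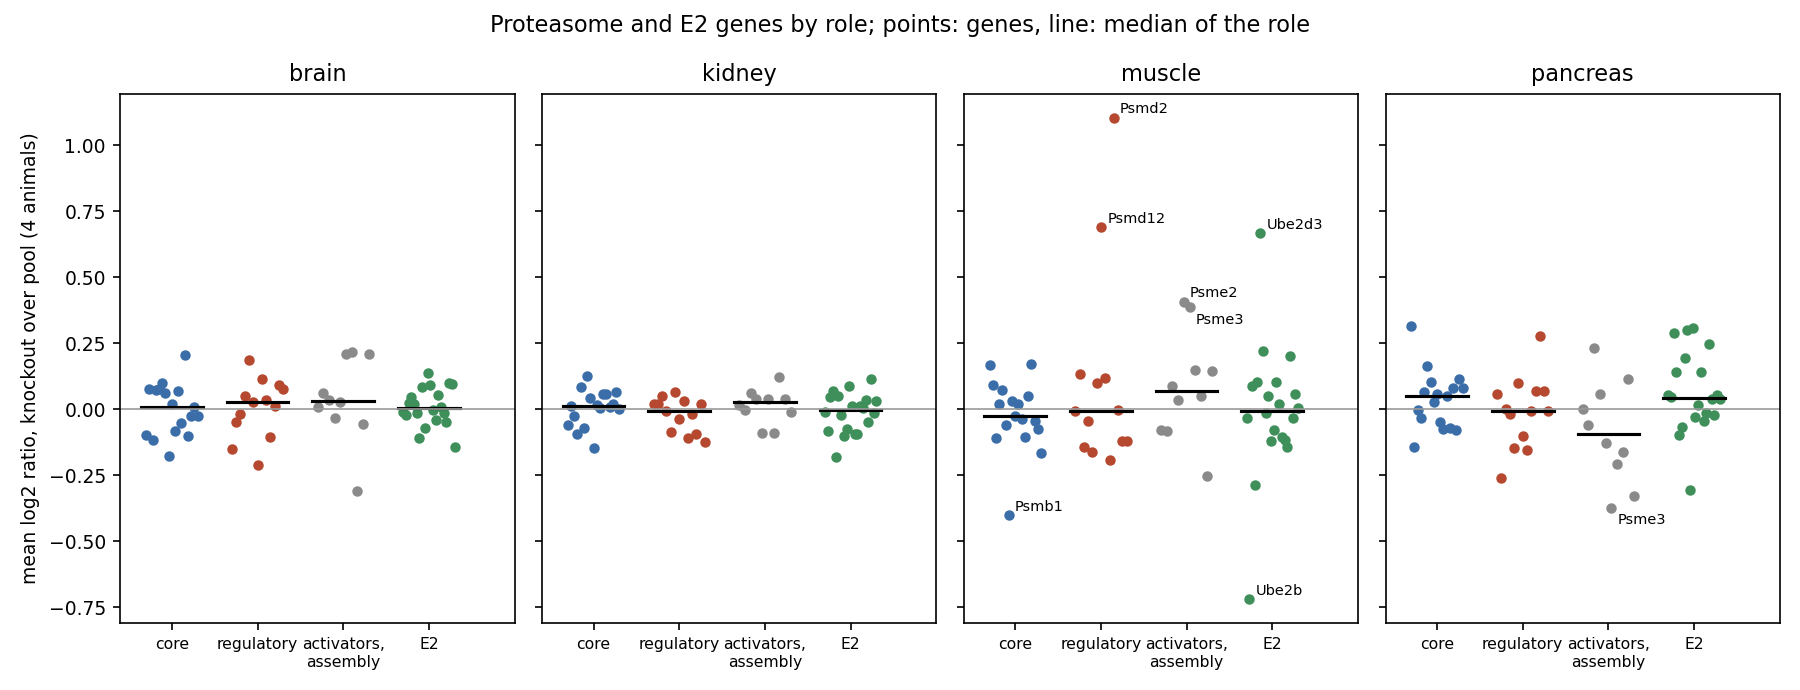
Mean log2 ratio of each member (knockout over pool, 4 animals, 3 for Psme2 in brain and muscle, vertical axis) in the 4 tissues, by role, with a line at the median of the role; the 2 genes matched by name alone are not drawn. The medians lie near 0 in every tissue, and the members beyond 0.5 in size (Psmd2, Psmd12, Ube2d3 and Ube2b) are all in muscle.

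Against the pool, limma called 0 of the 62 members at an adjusted p under 0.05 in each tissue, as it called 0.00% of all genes tested in brain, 0.00% in muscle, 0.00% in kidney and 0.00% in pancreas. At an unadjusted p under 0.05, limma gave in brain 0 members above and 0 below the pool, where the background was 2.24% above and 1.89% below. In kidney it gave 1 member above and 3 below (background 4.28% and 5.00%). In muscle the counts were 4 above and 2 below (background 3.61% and 3.69%), and in pancreas 1 and 1 (background 1.34% and 1.58%). Members above 0 in all 4 animals numbered 6 in brain (9.68% of the members, background 8.65%), 4 in muscle (6.45%, background 6.63%), 4 in kidney (6.45%, background 9.98%) and 3 in pancreas (4.84%, background 5.12%). Members below 0 in all 4 animals numbered 3 in brain (4.84%, background 6.57%), 9 in muscle (14.5%, background 11.6%), 5 in kidney (8.06%, background 9.76%) and 3 in pancreas (4.84%, background 4.87%). Most of these shares are close to those of the whole array. Members with a mean above 0 numbered 35 in brain (56.5%, background 53.4%), 31 in muscle (50.0%, background 41.6%), 34 in kidney (54.8%, background 51.5%) and 33 in pancreas (53.2%, background 50.4%). A mean beyond 0.5 in size was reached by 4 members in muscle (6.45%, background 3.90%) and by 0 members in brain (background 1.62%), kidney (background 0.755%) and pancreas (background 4.23%).

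Within the core particle, the alpha ring (6 genes) had a median of 0.07 in brain, 0.05 in muscle, −0.04 in kidney and 0.03 in pancreas. In brain, Psma7 stood at 0.04, 0.05, 0.12 and 0.18 in animals 1 to 4, and Psma2 at 0.02, 0.09, 0.02 and 0.18. Both genes were above 0 in every brain sample, but each on only 4 of 8 arrays. Psma1 lay at −0.04, −0.12, −0.15 and −0.08 in brain, below 0 in all 4 animals but also on only 4 of 8 arrays. Its brain mean was −0.10 ± 0.04 (SE, n = 4). In pancreas the same gene ran from −0.31 in animal 2 to 1.18 in animal 3, and its mean of 0.31 ± 0.26 was the highest of the core particle there. Psma5 was below 0 in every kidney sample, at −0.01, −0.18, −0.11 and −0.07.

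The constitutive beta ring, which includes the catalytic subunits Psmb5, Psmb6 and Psmb7, had 7 of 7 genes above 0 in kidney, with a median of 0.02, where 51.5% of all genes lay above 0. The kidney means began at 0.01, and the medians in animals 1 to 4 were −0.02, 0.06, 0.07 and 0.04. The dye orientations differed there. Psmb2 and Psmb4 were below 0 on every kidney array with the knockout in Cy5 and above 0 on every one with it in Cy3. Psmb1 was above 0 on every kidney array with the knockout in Cy5 and on both sides of 0 with it in Cy3. In brain 3 of 7 were above 0, in muscle 3 and in pancreas 3. Psmb5, which carries the chymotrypsin-like site, was above 0 in all 4 kidney samples, at 0.09, 0.03, 0.04 and 0.08, and in all 4 brain samples, at 0.04, 0.16, 0.01 and 0.61. Its mean was 0.06 ± 0.04 in kidney and 0.21 ± 0.11 (SE, n = 4) in brain, where animal 4 stood far above the others. Turning the Cy3 arrays put Psmb5 at −0.06 in kidney and −0.33 in brain. Psmb1, a structural beta subunit, was the lowest core gene in muscle, at −0.12, −1.01, −0.41 and −0.07. Its mean of −0.40 ± 0.17 (limma, adjusted p = 0.661) joined a mean of 0.30 on the Cy5 arrays and of −1.10 on the Cy3 arrays (named by the dye of the knockout RNA). The arrays of the 2 orientations therefore lay on opposite sides of 0.

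The immunoproteasome subunits Psmb8, Psmb9 and Psmb10 replace constitutive catalytic subunits after interferon signalling, and Psmb11 does so in the thymus. In pancreas 4 of these 4 genes lay above 0, with a median of 0.07 (background 50.4% above 0). In muscle 3 of 4 lay below 0, with a median of −0.05 (background 41.6% above 0). Psmb8 and Psmb9 were above 0 on every pancreas array with the knockout in Cy5 and below 0 on every one with it in Cy3. Psmb8 was above 0 on 8 of 8 kidney arrays, where its animals stood at 0.10, 0.00, 0.04 and 0.12, a mean of 0.06 ± 0.04. In muscle Psmb8 stood at −0.07, −0.13, −0.06 and −0.04, and Psmb9 at −0.09, −0.08, −0.29 and −0.21. Every muscle sample was thus below 0 for both genes, but the dye orientations of both lay on opposite sides of 0. Psmb8 had a mean of 0.06 on the Cy5 arrays and of −0.21 on the Cy3 arrays, and Psmb9 of 0.21 and −0.55. Psmb10 was the lowest core gene in brain, at 0.06, −0.12, −0.26 and −0.39. Psmb11 was the lowest core gene in kidney, at −0.22, 0.01, −0.19 and −0.18, a mean of −0.15 ± 0.05 (limma, adjusted p = 0.525).

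Markers of leukocytes and macrophages, cells that are rich in immunoproteasome, lay below 0 in muscle for 6 of the 6 measured. Of all genes tested in muscle, 41.6% lay above 0, and their median was −0.02. The markers had a median of −0.12 and animal medians from −0.20 to −0.07, and 2 had an unadjusted p under 0.05 (background 3.69% below). In pancreas 4 of the 6 markers lay above 0 (background 50.4%), with a median of 0.02. Their part in the values of Psmb8 and Psmb9 was not tested.

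The member farthest from the pool was Psmd2, the scaffold subunit of the regulatory particle that docks ubiquitin shuttle factors. In muscle its 4 animals stood at 0.72, 1.45, 1.01 and 1.24, and all 8 arrays were above 0, from 0.46 to 1.49. In brain they stood at −0.02, −0.25, −0.18 and 0.03, in kidney at −0.13, −0.12, 0.19 and −0.01, and in pancreas at 0.06, 0.22, −0.28 and 0.28. The muscle samples were all higher than every sample of the other tissues. The muscle mean of 1.10 ± 0.13 (SE, n = 4), or 2.15-fold, was close in both dye orientations, at 1.13 with the knockout in Cy5 and 1.08 in Cy3. Against the pool it did not pass over all genes (limma, adjusted p = 0.538), and it ranked 95 from the highest of 16662 genes tested in muscle. With the spread estimated from all 4 tissues in 1 fit, the same mean passed (limma, adjusted p = 0.000880), in a fit that called 1.57% of all genes in muscle. That spread is shared with the less variable brain and kidney and with the more variable pancreas. After turning the Cy3 arrays the muscle mean was 0.03.

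Psmd12, a subunit of the lid of the regulatory particle, was the other high member of the particle in muscle, at 0.37, 1.27, 0.31 and 0.80. These values were above 0 in all 4 animals and on 7 of 8 arrays, with animals 2 and 4 the highest, as for Psmd2. Its mean was 0.69 ± 0.18 (SE, n = 4), or 1.61-fold (limma, adjusted p = 0.556), at 0.99 in the Cy5 orientation and 0.39 in Cy3. In brain it was the lowest gene of the particle, at 0.11, −0.38, −0.17 and −0.40. Turned Cy3 arrays gave a muscle mean of 0.30.

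The promoters of these genes are shown because they are the regulatory particle members highest in muscle. They are the 250 bases before the RefSeq start, 5′ to 3′, in build GRCm38.p6, both on the + strand, at chr16:20651402-20651651 for Psmd2 and chr11:107479278-107479527 for Psmd12. Capitals mark GC boxes (GGGCGG, or its reverse complement) and the core of the antioxidant response element (TGACNNNGC, or its reverse complement), a motif bound by Nrf2 (Nfe2l2), the regulator of antioxidant genes.
Psmd2: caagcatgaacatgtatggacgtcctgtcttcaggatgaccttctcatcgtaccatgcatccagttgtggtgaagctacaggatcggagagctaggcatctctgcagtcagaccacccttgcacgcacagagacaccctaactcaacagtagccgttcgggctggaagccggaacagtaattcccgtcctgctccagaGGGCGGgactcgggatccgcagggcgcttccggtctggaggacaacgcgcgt
Psmd12: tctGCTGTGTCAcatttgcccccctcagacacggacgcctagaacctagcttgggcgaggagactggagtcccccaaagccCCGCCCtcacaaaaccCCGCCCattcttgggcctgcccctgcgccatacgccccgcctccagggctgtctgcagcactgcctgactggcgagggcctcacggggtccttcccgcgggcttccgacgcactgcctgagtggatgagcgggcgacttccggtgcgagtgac
Psmd2 has 1 GC box, 52 bases before the start, and 0 copies of the antioxidant core. Psmd12 has 2 GC boxes, 169 and 153 bases before the start, and 1 antioxidant core, 247 bases before it. The RefSeq table held promoters of 53 of the 62 members, in 65 windows of 300 bases that run 250 bases before to 50 after a start. Only the 250 bases before the start were searched in each window. On either strand, a GC box was present there in 64.6% of the members' windows and 32.7% of all 32851 windows. The antioxidant core was in 10.8% of the members' windows and 10.2% of all. It was found at Psmb5, Psmb6, Psmc6, Psmd12, Psmd9, Ube2e2 and Ube2j1. CCAAT was in 27.7% against 33.8%, and TATAAA in 7.69% against 12.4%. The motifs were searched separately and can overlap. Among the 7 genes with the antioxidant core, the muscle means ran from −0.16 for Psmc6 to 0.69 for Psmd12.

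**Figure D2:**
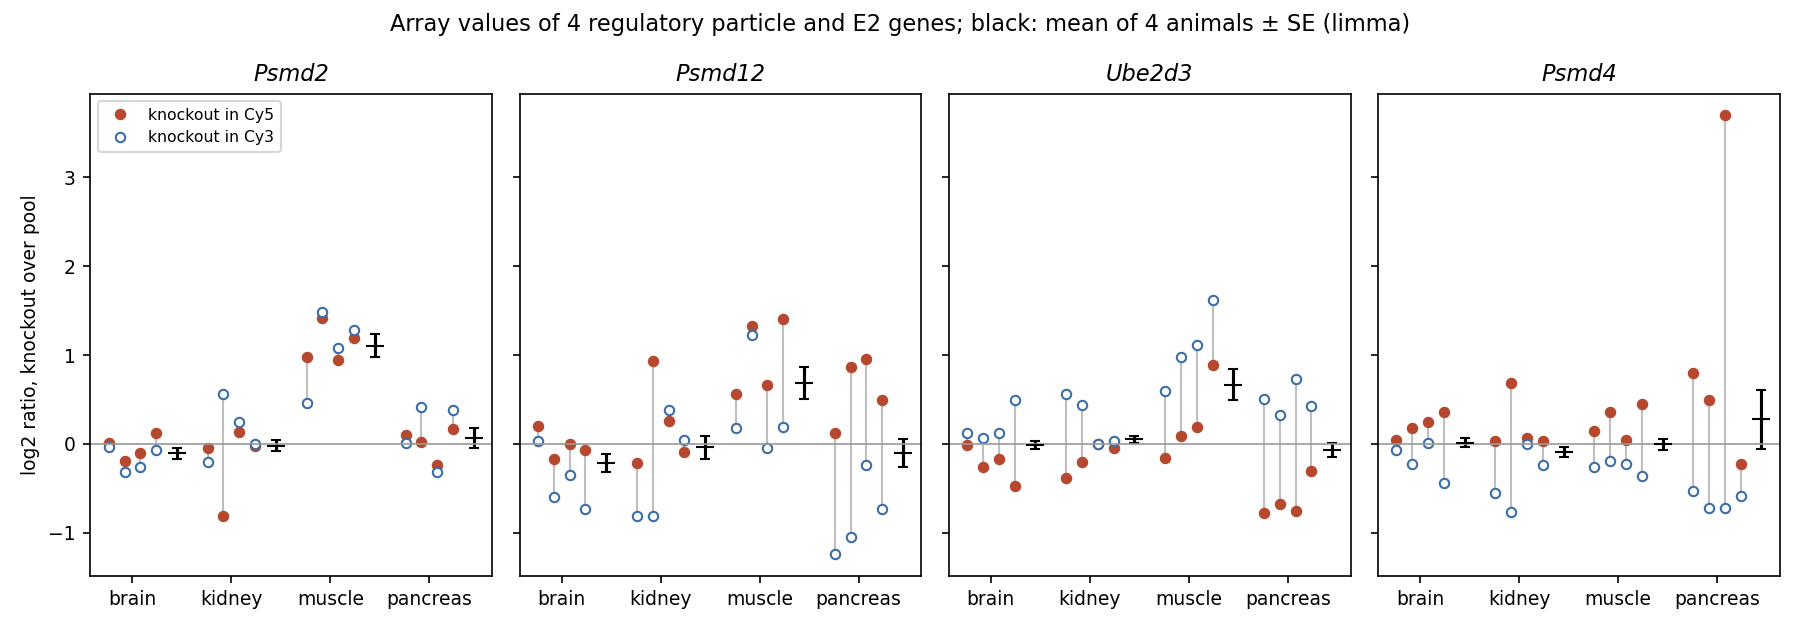
Log2 ratio of every array (vertical axis) for Psmd2, Psmd12, Ube2d3 and Psmd4 in the 4 tissues; a grey line joins the arrays of an animal with the knockout in Cy5 (filled) and in Cy3 (open), and black marks give the mean of 4 animals ± SE. Psmd2 in muscle is above 0 on all 8 arrays at 1.10 ± 0.13, whereas the orientations of Ube2d3 in muscle differ (0.26 and 1.08) and 1 animal sets the pancreas mean of Psmd4.

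The ATPases that unfold the substrate (Psmc2 to Psmc6, 5 genes) had medians of −0.02 in brain, −0.05 in muscle, 0.02 in kidney and −0.02 in pancreas. Psmc6 was below 0 on 8 of 8 muscle arrays, at −0.18, −0.07, −0.26 and −0.14, a mean of −0.16 ± 0.06 (limma, adjusted p = 0.661). It was also below 0 on 8 of 8 pancreas arrays, at −0.24, −0.16, −0.16 and −0.03, a mean of −0.15 ± 0.08. In brain it was the highest gene of the particle, at 0.03, 0.41, −0.15 and 0.46. Psmc2 lay below 0 in all 4 brain samples, at −0.02, −0.10, −0.11 and −0.37. Psmc3 was the lowest gene of the particle in pancreas, at 0.26, −0.70, −0.67 and 0.07, so its samples fell on both sides of 0.

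The non-ATPase subunits beside Psmd2 and Psmd12 stayed between −0.19 and 0.12 in muscle. The lowest was Psmd14, the deubiquitinase that removes ubiquitin chains at the pore, at −0.28, −0.50, −0.02 and 0.02. Psmd6, a lid subunit, was below 0 in all 4 muscle samples, at −0.14, −0.05, −0.14 and −0.14, and above 0 in all 4 brain samples, at 0.03, 0.14, 0.09 and 0.11. In kidney the lowest gene of the particle was Psmd7, a lid subunit, at −0.12. The highest was Psmd11, a subunit that stabilises assembly, at 0.06, with its 2 probes at 0.21 and −0.08. In pancreas the highest was Psmd4, a ubiquitin receptor, at 0.13, −0.11, 1.49 and −0.41. Its mean of 0.28 ± 0.33 rested on animal 3.

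Among activators, Psme1 and Psme2 form a cap induced by interferon, Psme3 forms a nuclear cap and Psme4 a single-chain cap. All 4 lay above 0 in muscle, with a median of 0.27 and animal medians from 0.05 to 0.46, and 3 of 4 lay below 0 in pancreas, with a median of −0.17. Psme3 in muscle stood at 0.20, −0.02, 0.70 and 0.66, a mean of 0.39 ± 0.14 (limma, adjusted p = 0.661). In pancreas it was the lowest of its role, at −1.06, −0.25, 0.24 and −0.43. Psme2 was the highest of its role in muscle, at 0.16, −0.04 and 1.10 in the 3 animals with both arrays, so animal 3 set its mean of 0.41 ± 0.25 (n = 3). In pancreas Psme2 ran from −1.71 to 2.03. Psme4 was below 0 in all 4 pancreas samples, at −0.43, −0.07, −0.19 and −0.14, and was the highest of its role in brain, where animal 4 stood at 0.90 and the others between −0.18 and 0.08.

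Psmf1, an inhibitor of the core particle, had the smallest p of the members above the pool in kidney, at 0.08, 0.11, 0.18 and 0.12. All 4 samples were above 0, and the mean was 0.12 ± 0.04 (limma, adjusted p = 0.511), at 0.32 with the knockout in Cy5 and −0.08 in Cy3. In brain Psmf1 was the lowest of its role because of animal 2 at −1.14, with the others between −0.15 and 0.10. Psmd9, a chaperone that helps to build the ATPase ring, was above 0 in all 4 pancreas samples, at 0.36, 0.12, 0.31 and 0.14, a mean of 0.23 ± 0.08 (limma, adjusted p = 0.991). In animals 1, 2 and 4 its 2 pancreas arrays lay on opposite sides of 0, at 1.28 and −1.03 in animal 2. The other chaperones of that ring, Psmd5 and Psmd10, were below 0 in all 4 muscle samples, with means of −0.08 each. Psmg1, a chaperone of the alpha ring, was the lowest of its role in muscle, at 0.01, 0.10, −0.48 and −0.65.

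**Figure D3:**
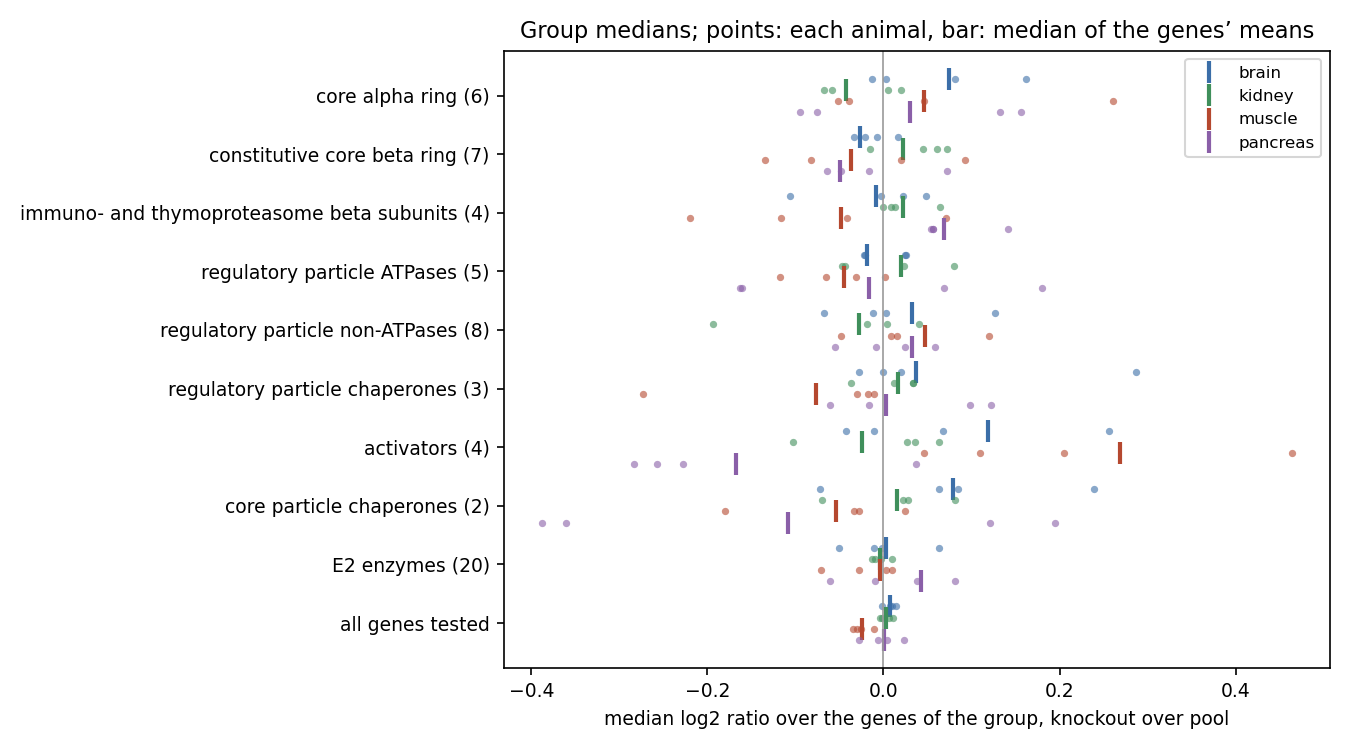
Median log2 ratio over the genes of each group (horizontal axis; number of genes in brackets) in each tissue, as points for the 4 animals and as a bar for the median of the genes' means. Groups of many genes, such as the 20 E2 enzymes, lie near 0, and the 4 activators reach 0.27 in muscle and −0.17 in pancreas with animals spread around these values.

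The E2 enzymes had 10 of 20 genes above 0 in brain, 10 in muscle, 10 in kidney and 13 in pancreas. Ube2d3, which serves a wide range of E3 ligases, was the highest E2 gene in muscle, at 0.22, 0.53, 0.66 and 1.25. All 4 animals and 7 of 8 arrays were above 0. The mean of 0.67 ± 0.17 (SE, n = 4), or 1.59-fold, did not pass against the pool (limma, adjusted p = 0.557). It joined 0.26 on the arrays with the knockout in Cy5 and 1.08 on those with it in Cy3. With the Cy3 arrays turned, the mean was −0.41 and passed (limma, adjusted p = 0.0481), so the direction of this gene depends on whether those arrays had been turned. Its close relatives did not share the value: Ube2d1 stood at 0.03, −0.22, −0.51 and −0.44 in muscle (mean −0.29 ± 0.11) and Ube2d2a at 0.06, 0.10, 0.09 and 0.17 (mean 0.10 ± 0.06). The 3 genes are close paralogs, so how far a cDNA probe told them apart is uncertain.

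In kidney Ube2d2a was the member with the smallest p, at −0.19, −0.11, −0.13 and −0.30. All 4 animals and 7 of 8 arrays were below 0, and the mean was −0.18 ± 0.05 (limma, adjusted p = 0.511). Ube2j1, an E2 of the endoplasmic reticulum that serves the removal of misfolded proteins, also lay below 0 on 7 of 8 kidney arrays, at −0.10, −0.06, −0.12 and −0.09. Ube2q1 was the highest E2 gene in kidney, at 0.24, −0.01, 0.11 and 0.11. In pancreas Ube2g1 was below 0 in all 4 animals, at −0.09, −0.48, −0.30 and −0.35, a mean of −0.31 ± 0.09 (limma, adjusted p = 0.991). The 2 probes of Ube2g1 stood there at −0.08 and −0.41, and the lower one had 2 missing values. The orientations of the gene disagreed, at 0.24 with the knockout in Cy5 and −0.85 in Cy3. Ube2g2, another E2 of the endoplasmic reticulum, was the highest in pancreas through animal 3 at 1.46, with the others between −0.12 and −0.03. In brain the E2 genes ran from −0.14 for Ube2z, which accepts ubiquitin from the E1 enzyme Uba6, to 0.14 for Ube2g2.

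Ube2b, known for spermatogenesis and for a rise in wasting muscle, had the lowest mean of all members in muscle, −0.72 ± 0.51. This came from 1 deposited value at the floor, on 1 of its 3 probes in animal 3. The animals stood at −0.05, 0.01, −2.73 and −0.11, and with floor values taken as missing the mean was −0.06. The lowest muscle mean among E2 genes without a floor value was that of Ube2d1.

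Comparing tissues directly, limma called 1 of 62 members, Psmd2, in each of the 3 differences that involve muscle. The background was 0.461% of 16257 genes for muscle minus brain, 0.0123% for muscle minus kidney and 0.578% for muscle minus pancreas. The difference in log2 ratio was 1.21 ± 0.15 (SE) against brain (limma, adjusted p = 0.0207), 1.12 ± 0.15 against kidney (limma, adjusted p = 0.0343) and 1.04 ± 0.15 against pancreas (limma, adjusted p = 0.0210). With the animal as a replicate block the adjusted p of limma was 0.0755, 0.0983 and 0.0466 in that order, so the first 2 calls were lost. Fitted on only the tissues compared, limma gave an adjusted p of 0.260, 0.398 and 0.543, so all 3 calls were lost. The fit of all tissues shares 1 estimate of the spread, whereas the median SD between animals over all genes was 0.13 in brain, 0.17 in muscle, 0.10 in kidney and 0.22 in pancreas. By construction, a shared estimate can make adjusted p-values too small in pairs of the more variable tissues. A fit of only the tissues compared also leaves fewer residual degrees of freedom. Why the calls were lost was not tested. Leaving out animal 1 from all tissues kept the 3 calls, and leaving out animal 2, 3 or 4 lost each of them, with adjusted p from 0.00316 to 0.551 against brain, 0.0197 to 0.926 against kidney and 0.0157 to 0.231 against pancreas. On turned Cy3 arrays the differences were −0.04, 0.20 and 0.08. The muscle comparisons share the muscle samples and are not independent of each other.

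Ube2d3 was the member nearest to the threshold after Psmd2. Its muscle ratio was higher by 0.68 ± 0.15 than in brain (limma, adjusted p = 0.0698), by 0.62 ± 0.15 than in kidney (limma, adjusted p = 0.228) and by 0.73 ± 0.15 than in pancreas (limma, adjusted p = 0.0511). Psmd12 was higher in muscle than in brain by 0.90 ± 0.24 (limma, adjusted p = 0.132). In the pairs without muscle, limma called 0 members (background 0.00% for brain minus kidney, 0.00% for brain minus pancreas and 0.00% for kidney minus pancreas). At an unadjusted p under 0.05, limma gave 6 members for muscle minus brain (9.68%, background 9.23%) and 6 for muscle minus kidney (9.68%, background 6.23%). It gave 13 for muscle minus pancreas (21.0%, background 12.8%), of which 6 were higher in muscle and 7 lower. The pairs without muscle gave 2 members for brain minus kidney (3.23%, background 2.92%), 5 for brain minus pancreas (8.06%, background 8.29%) and 2 for kidney minus pancreas (3.23%, background 5.67%).

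By role, the difference of muscle minus brain had a median of −0.04 over the core particle, −0.02 over the regulatory particle and −0.03 over the E2 enzymes. Of the 13 genes of the regulatory particle, Psmd2 included, 6 had a higher ratio in muscle than in brain, and 4 a higher ratio than in pancreas. Against kidney, 7 of 13 were higher in muscle.

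For most members the 2 dye orientations lay on opposite sides of 0. The mean with the knockout in Cy5 and the mean with it in Cy3 had opposite signs for 39 of 62 members in brain (62.9%), 38 in muscle (61.3%), 48 in kidney (77.4%) and 47 in pancreas (75.8%). Over all genes the shares were 62.9% in brain, 65.2% in muscle, 67.7% in kidney and 77.3% in pancreas. The median size of the difference between orientations was 0.17 in brain, 0.29 in muscle, 0.21 in kidney and 0.50 in pancreas. The median size of a member's mean was 0.06 in brain, 0.10 in muscle, 0.05 in kidney and 0.07 in pancreas. With the Cy3 arrays turned, limma called 2 members in muscle, Psma6 and Ube2d3 (background 1.97%), and 12 in pancreas (background 14.6%). It then called 0 members in the pairs of muscle with another tissue, 11 for brain minus pancreas (background 9.29%) and 1 for kidney minus pancreas (background 2.18%). In pancreas the 12 were 7 core genes (Psma2, Psma6, Psmb1, Psmb2, Psmb3, Psmb8 and Psmb9), Psmd12, Psme1, Psmg1, Ube2d3 and Ube2g1, in both directions.

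**Figure D4:**
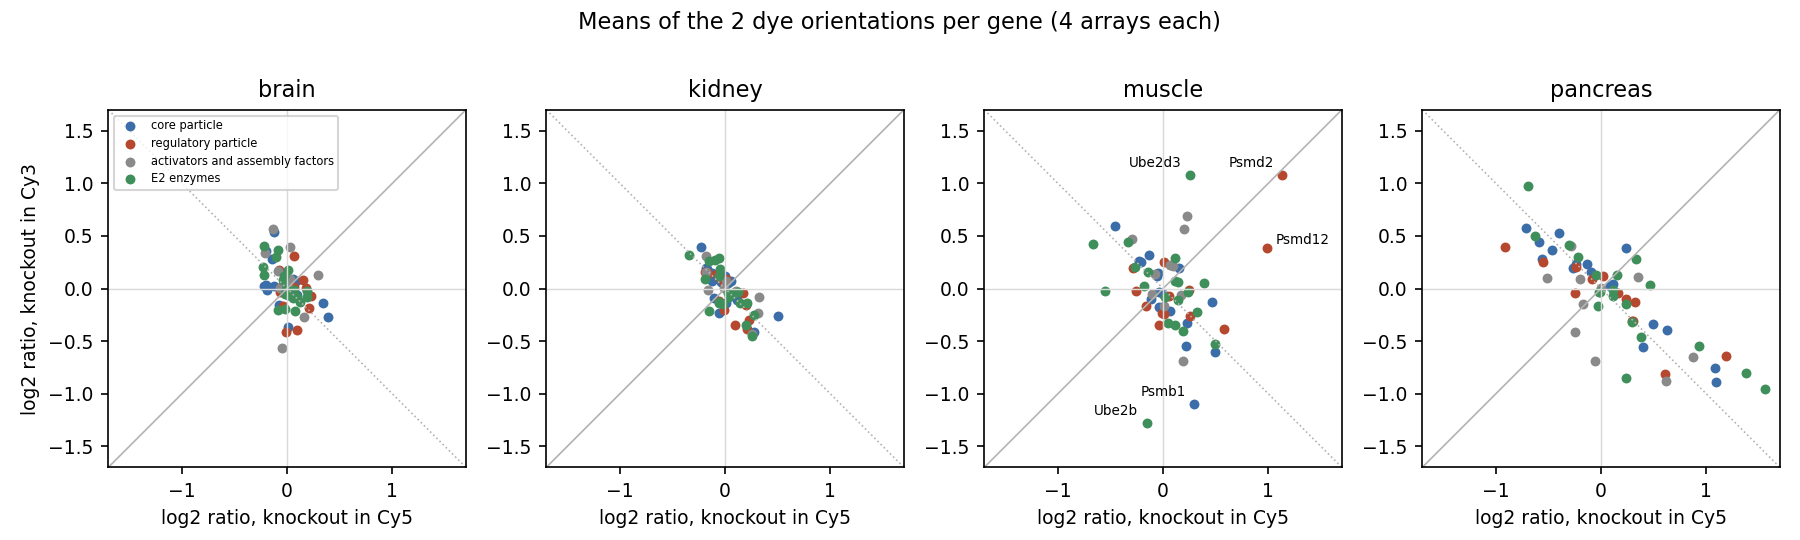
Mean log2 ratio of each member over the 4 arrays with the knockout in Cy5 (horizontal) against the 4 arrays with the knockout in Cy3 (vertical), by tissue and coloured by role, without the 2 genes matched by name alone; the solid diagonal marks equal values and the dotted one opposite values. In pancreas 47 of 62 members had opposite signs, and Psmd2 in muscle lies on the solid diagonal at 1.13 and 1.08.

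Single animals set several of the member values. In muscle 24 members had animal 3 farthest from the median of the tissue. The SD over the members was 0.50 in that animal, against 0.17 to 0.34 in the others, but 0.35 without Ube2b, whose floor value lies there. The median absolute deviation over the members was 0.20 in animal 3 and 0.16 in animal 4. In pancreas the SD was 0.52 in animal 3, against 0.30 to 0.37, with 23 members farthest in that animal. In brain animal 4 had the widest SD (0.27) and in kidney animal 1 (0.16). Over all probes of the array, the median absolute deviation was also the widest in these animals of their tissues. It was 0.21 in animal 3 of muscle (0.08 to 0.15 in the others) and 0.20 in animal 3 of pancreas (0.13 to 0.17). In brain it was 0.16 in animal 4 and in kidney 0.12 in animal 1. The wide spread of these animals was thus not particular to the members. Besides Psma1, Psmd4 and Ube2g2, animal 3 of pancreas stood at 1.63 for Ube2c and 1.80 for Ube2f, genes chosen after their values were seen. Ube2c acts in mitosis and Ube2f conjugates the ubiquitin-like protein Nedd8.

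Of the 14 members on more than 1 probe, the probe means differed by a median of 0.15 in brain, 0.22 in muscle, 0.09 in kidney and 0.15 in pancreas. Psmd2, Psmd12 and Ube2d3 each rested on 1 probe. Member probes with the highest probe numbers, from 18715 on, numbered 11, and their muscle median was 0.07, against −0.01 for the other 73. A muscle mean above 0.5 was reached by 2 of these 11 probes, those of Psmd12 and Ube2d3, and by 1 of the 73, that of Psmd2. Over all probes the shares above 0.5 were 6.85% from probe 18715 on and 3.08% elsewhere, so the probe number moved with the values of Psmd12 and Ube2d3. Its part in them was not tested.

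The other genes of the pathway were read from 7 lists: ubiquitin genes and E1 enzymes, shuttle factors and Vcp partners, proteasome regulators, deubiquitinases, muscle E3 ligases and atrophy genes, cullin-RING parts, and antigen presentation and interferon genes. Against the pool limma called 0 genes of each list in each tissue. At an unadjusted p under 0.05, it gave 8 of the 97 list genes tested in muscle above the pool and 2 below (background 3.61% and 3.69%), and in kidney 3 and 5 of 97 (background 4.28% and 5.00%). In brain it gave 0 and 6 of 98 (background 2.24% and 1.89%), and in pancreas 0 and 1 of 93 (background 1.34% and 1.58%). In muscle, the proteasome regulator Ublcp1, a phosphatase of the proteasome, stood at 0.80, 1.82, 0.83 and 1.46, a mean of 1.23 ± 0.20 (limma, adjusted p = 0.538). Of these lists it was the only gene called between tissues, at 1.36 for muscle minus brain (limma, adjusted p = 0.0275) and 1.38 for muscle minus pancreas (limma, adjusted p = 0.0210). With the replicate block the adjusted p of limma was 0.0755 and 0.0466, so the first call was lost, and with only the tissues compared it was 0.260 and 0.543, so both were. Leaving out animal 2, 3 or 4 also lost both calls (limma, adjusted p from 0.123 to 0.563), and on turned Cy3 arrays the differences were −0.29 and 0.05. Nsfl1c, a cofactor of the unfoldase Vcp, stood at 0.13, 1.22, 0.80 and 1.45 (mean 0.90 ± 0.23), and the deubiquitinase Usp2 at 0.41, 1.38, 0.49 and 0.91 (mean 0.80 ± 0.18). The probe of Usp2 is among those numbered from 18715 on, as for Psmd12 and Ube2d3. In Ublcp1, Nsfl1c and Usp2 animals 2 and 4 were the highest, as for Psmd2 and Psmd12. Other high genes in muscle lacked this order. Ufd1 stood at 0.35, −0.83, 0.24 and 3.77, and Cul4b at 0.36, 0.75, 0.05 and 0.26. Ube2d3 was highest in animals 3 and 4. How many of all genes had the order was not counted. Elob and Btrc, parts of cullin-RING ligases, were at 0.34 ± 0.07 and 0.32 ± 0.07 in muscle, above 0 in all 4 animals.

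The lists as groups lay near 0, apart from the muscle E3 ligases and atrophy genes in muscle. The 28 deubiquitinases measured had a median of 0.01 in muscle and the 20 cullin-RING parts 0.01, of which 3 were above the pool at an unadjusted p under 0.05 and 0 below (background 3.61% and 3.69%). The 10 measured muscle E3 ligases and atrophy genes had a muscle median of −0.11, with 0 genes at an unadjusted p under 0.05 in either direction. Nfe2l2, which regulates antioxidant and proteasome genes, was below 0 in all 4 muscle samples, at −0.07, −0.10, −0.16 and −0.29 (mean −0.15 ± 0.07). Faf2, a Vcp cofactor, was at −0.18 ± 0.04 in kidney, below 0 in all 4 animals (limma, adjusted p = 0.511). Tap1, the peptide transporter of antigen presentation, was at −0.19 ± 0.04 in kidney. Tapbp, its neighbour in the pathway, was at 0.28 ± 0.08 in muscle. These values are from different tissues and do not compare the genes. In brain, Nedd8 was at −0.17 ± 0.04, the deubiquitinase Bap1 at −0.23 ± 0.07 and the E3 ligase Trim32 at −0.12 ± 0.04, each below 0 in all 4 animals. Sumo2 was at 0.23 ± 0.10 in muscle and Cish, which limits cytokine signalling, at −0.13 ± 0.04 in kidney.

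Markers of other cells were read beside the muscle values. The 3 measured genes of skeletal muscle fibres lay below 0 in muscle, where 41.6% of all genes tested lay above 0. Their median was −0.10, with animal medians from −0.38 to 0.04. Of 4 endothelial genes in muscle, Tek (0.60) and Cdh5 (0.42) lay above 0 with an unadjusted p under 0.05 (background 3.61%), and Pecam1 (−0.17) and Kdr (−0.01) lay below 0. The median was 0.21, with animal medians from 0.11 to 0.34. Their part in the muscle values of Psmd2, Psmd12 and Ube2d3 was not tested.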

How the data were processed

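RNA of 4 tissues from 4 knockout mice was measured on 32 two-channel cDNA arrays. The authors deposited 1 log2 ratio per probe and array, per the series matrix headers; the base was taken as 2 because of how large the extreme values are. How the authors scanned, background-corrected and normalised the arrays is unstated in the labels and headers. Per the labels' protocols, 20 µg of RNA was labelled indirectly. Values beyond 8 in size (1844 of 655162, 1 of them in a member) were kept, and taken as missing in an alternative.

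The probe annotation named 12771 probes with 1 symbol, 0 with several and left 8023 unnamed. Probes of a symbol and the 2 arrays of an animal were averaged; both arrays and at least 3 animals were required. limma 3.58.1 (R 4.3.3; lmFit, eBayes, two-sided) tested each tissue's mean against 0 and, in 1 fit of 4 tissues with 12 residual degrees of freedom, the 6 differences, with Benjamini-Hochberg adjustment over all genes and a threshold of 0.05. The pool is the common reference, so tests leave out wild-type spread. SE is limma's. Both tests were run on simulated data with the tissues' own spreads. The draws took each gene's estimated SD as the true one and ignored the pairing of tissues, so they do not calibrate the tests here. With no change simulated, that against the pool, run for kidney and pancreas, made 0 calls, and the fit of 4 tissues made false calls, most for muscle minus pancreas. The number of arrays limits the precision.

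Members, lists and tests were chosen with earlier results of these data known. Named were called members, up to 5 each way per tissue with the smallest p and 1 sign in all 4 animals, the highest and lowest of each role, and up to 2 genes per pathway list. Figures used matplotlib 3.10.9. The tissues of an animal are paired, as the labels give the same mice; over all genes, the correlation of an animal's deviations in 2 tissues lay between −0.0969 and 0.145. The alternatives tried were other dye signs and orientations, floor values, centring, scaling, probe and array rules, left-out animals, the replicate block, weights and other fits.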

Additional observations from a re-analysis of the deposited data

Results flagged for a closer look

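In 7 of 74 groups of 4 animals, 1 animal stood apart from the other 3, where chance gives about 1 in 20 for groups not picked by their values. The genes among these groups were picked by their values in the same data. That rate therefore does not apply to them, and no excess over it can be read. Ube2b in kidney was at −0.23 in animal 1, against −0.04 to −0.02 in the others. Psma7 in kidney was at −0.22 in animal 1, against −0.04 to −0.01. Psmb11 in kidney was at 0.01 in animal 2, against −0.22 to −0.18. Psmd6 in muscle was at −0.053 in animal 2, against −0.14 in the others. Ube2b in muscle was at −2.73 in animal 3, where 1 value lies at the floor, against −0.11 to 0.01. Ube2g2 in pancreas was at 1.46 in animal 3, against −0.12 to −0.03. The median of the core particle in brain was 0.048 in animal 3, against −0.01 to 0.00.

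The log2 ratio of Psmd2 differed between tissues in the test of the difference itself: by 1.21 for muscle minus brain, 1.12 for muscle minus kidney and 1.04 for muscle minus pancreas. With the animal as a replicate block the adjusted p of limma was 0.0755, 0.0983 and 0.0466, so the calls from brain and kidney were lost, and with only the tissues compared all 3 were. On turned Cy3 arrays the differences were −0.04, 0.20 and 0.08.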

How the results depend on the processing

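The calls of Psmd2 between tissues depended on the settings, and counts of members called moved with the dye signs; the causes were not tested. With the Cy3 arrays turned, members called were 2 in muscle, 12 in pancreas, 0 in each difference of muscle from another tissue, 11 for brain minus pancreas and 1 for kidney minus pancreas. The Psmd2 differences were then −0.037 from brain, 0.20 from kidney and 0.082 from pancreas. The medians were then 0.0305 (regulatory particle) and 0.0371 (E2) in kidney, 0.11 and 0.0447 in muscle, and −0.13 (core) in pancreas. Single genes changed sign: in brain Psmb5 (−0.33), Psmd5 (−0.0306) and Psmc2 (0.24); in kidney Psmb5 (−0.0597), Psmb8 (−0.0104), Ube2d2a (0.0286), Ube2j1 (0.0336), Ube2b (0.0613) and Psma7 (0.35); in muscle Ube2d3 (−0.41), Psmc6 (0.00275), Psmb9 (0.38), Psmb1 (0.70), Psmd6 (0.11) and Ube2b (0.56); and in pancreas Ube2g1 (0.54). Other genes named above also changed sign, such as Psmb8 and Psmg1 in muscle and Psmb10 in brain. The pathway gene Ublcp1 was then at −0.29 for muscle minus brain.

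With the knockout in Cy5 alone, members called were 0 for muscle minus brain (Psmd2 1.17), 0 for muscle minus kidney (Psmd2 1.32), 3 for muscle minus pancreas (1.15% of all genes), 4 for brain minus pancreas (3.65%) and 1 for kidney minus pancreas (0.792%). Medians were −0.0408 (core) and −0.0335 (E2) in kidney, 0.11 (E2) in muscle, and −0.0985 (core), 0.16 (regulatory particle) and 0.13 (E2) in pancreas. Signs changed for Psmb5 in brain (−0.13) and kidney (−5e-04), Psmc2 in brain (0.093), Psma7 in kidney (0.28), Psmb9 (0.21) and Psmb1 (0.30) in muscle and Ube2g1 in pancreas (0.24). With the knockout in Cy3 alone, 0 members were called in the muscle differences (Psmd2 1.25, 0.92 and 0.95). Medians were 0.0668 (core), −0.0429 (regulatory particle) and −0.0643 (E2) in kidney, −0.0735 (regulatory particle) in muscle, and 0.20 (core) and −0.0346 (E2) in pancreas. Signs changed for Psma7 (−0.14), Psma1 (0.0245) and Psmb2 (0.0372) in brain, Psmf1 (−0.0765) and Psme3 (−0.0267) in kidney, Ube2d2a (−0.034) and Ube2g2 (0.43) in muscle, and Psmb8 (−0.39) and Psme4 (0.10) in pancreas.

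For muscle minus pancreas, 2 members were called with floor values missing (0.933% of all genes), with all 4 animals required (0.670%) and with robust moderation (0.640%), Ube2d3 being added. With all 4 tissues in 1 fit, 2 members were called in muscle against the pool (1.57% of all genes). Scaled arrays lost the Psmd2 call from kidney (0.98) and pancreas (0.97), with 0 members called, and gave core medians of 0.0427 in kidney and 0.0286 in pancreas. Keeping animals with 1 array lost the call from kidney (1.12, 0 members called). With the replicate block, which pairs the tissues of an animal, the Psmd2 differences of 1.21 from brain and 1.12 from kidney lost their calls (0 members called), and that from pancreas stayed. With only the compared tissues fitted, 0 members were called (Psmd2 1.21, 1.12 and 1.04). Tissue weights gave 2 members for muscle minus brain (0.535% of all genes) and 0 for muscle minus pancreas (Psmd2 1.04). With 1 animal left out, members called ran from 0 to 3 for muscle minus brain, 0 to 1 for muscle minus kidney and 0 to 2 for muscle minus pancreas; the Psmd2 differences ran from 1.04 to 1.37, 0.97 to 1.22 and 0.95 to 1.16. Medians then ran for the core particle from −0.0518 to 0.0275 in brain, −0.0152 to 0.0228 in muscle and 0.0253 to 0.0275 in pancreas, for the regulatory particle from −0.0499 to 0.0127 in muscle, and for the E2 enzymes from −0.0164 to 0.00504 in kidney. Of the other values followed under these alternatives, 778 kept their direction and side of the threshold. That count, and the sign changes listed, do not cover every gene named above. Spot brightness was not analysed here, and 4 animals and 1 pool limit the precision of every value.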
